A study of Canis lupus familiaris with 2 samples.

Results

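The genes described here encode follistatin, its relatives, activin subunits and activin receptors. There were 10 of them, FST, FSTL1, FSTL3, INHBA, INHBB, ACVR1, ACVR1B, ACVR2A, ACVR2B and BAMBI, and each was found by its symbol among the 23510 features of both deposited files. They were chosen by role around FST, which had itself been selected on its ratio between these cultures, so all of their values are given as a description. RNA sequencing compared 2 cultures of MDCK cells, an established epithelial line from dog kidney. In 1 culture the medium stood 2 cm high (2 cm H2O, labelled as without pressure) and in the other 50 cm high (50 cm H2O), and the cultures are called 2 cm and 50 cm from here on. Both were grown on culture inserts in serum-containing EMEM, and both labels give 3 days. With 1 culture per medium height there was no replicate spread, so no test of a difference was possible.

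Activins are secreted dimers of the beta subunits that INHBA and INHBB encode. They bind type II receptors (ACVR2A, ACVR2B), which recruit and phosphorylate a type I receptor (for activin mainly ACVR1B), and the signal passes through SMAD2 and SMAD3 to the nucleus. Follistatin, the product of FST, and FSTL3 wrap around activin outside the cell and keep it from its receptors. In the kidney, activin A is known as a brake on tubule branching and follistatin as its counterpart in tubule regeneration.

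The deposited values are FPKM, which correct fragment numbers for transcript length and library size, so that on this scale levels of different genes can be compared. A ratio is the 50-cm over the 2-cm FPKM value without a pseudocount, and a gene was counted as past 2-fold when both FPKM values were above 1 and the ratio was above 2 or below 0.5. Of the 10 genes, 8 passed this minimum. INHBB lay below it at 2 cm only, and BAMBI in both cultures. FST alone was past 2-fold, 1 of 8 genes, in a background of 1.67% (185 of 11057 features), with 0.389% above 2 and 1.28% below 0.5. Since FST had been selected on this ratio, nothing is read from that count. Quantile normalization of the cultures shifted the background from 43 features above 2 and 142 below 0.5 to 57 and 101.

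**Figure D1:**
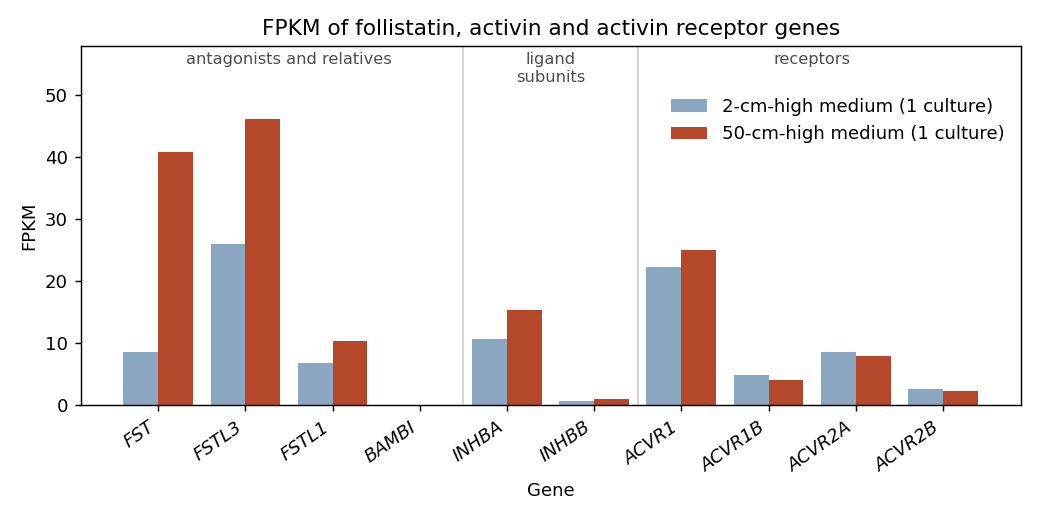
FPKM (linear axis from 0) of the 10 genes in the 2 cm culture (blue) and the 50 cm culture (red), 1 culture each and therefore without error bars. FST went from 8.58 to 40.9 FPKM, whereas the largest receptor difference, that of ACVR1, was 2.70 FPKM.

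The antagonists FST and FSTL3 showed the largest differences in level. FST had 8.58 FPKM at 2 cm and 40.9 FPKM at 50 cm, a ratio of 4.76 (2.25 on the log2 scale). This ratio had rank 3 among the 11057 features, and 2 features lay above it. FSTL3, a secreted activin antagonist that unlike follistatin lacks a heparin-binding sequence, had 26.0 FPKM at 2 cm and 46.2 FPKM at 50 cm, a ratio of 1.78. It did not reach 2-fold, and 79 of the 11057 features (0.714%) had a higher ratio. Thus FSTL3 had the highest level of the 10 genes in both cultures, and FST moved from position 4 to position 2.

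The sum of the FST and FSTL3 levels was 34.6 FPKM at 2 cm and 87.0 FPKM at 50 cm, which is 2.52 times as high. FST supplied 61.5% of that difference. The share of FST in the sum was 24.8% at 2 cm and 46.9% at 50 cm, so at 50 cm the antagonist transcripts were split almost evenly between FST and FSTL3.

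FSTL1 carries a follistatin-type domain but is not known as a strong activin antagonist. It had 6.87 FPKM at 2 cm and 10.4 FPKM at 50 cm, a ratio of 1.51, and 1.96% of features had a higher ratio. BAMBI encodes a membrane pseudoreceptor that resembles a type I receptor but lacks the kinase domain, and it damps signalling inside the receptor complex. It had 0.0525 FPKM at 2 cm and was listed at 0 at 50 cm. No ratio is given for it, because a listed 0 can also be a failed estimate. ATP5O, a gene of the mitochondrial ATP synthase, was at 0 FPKM in both cultures too.

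Of the activin subunits, INHBA was the main one. It had 10.7 FPKM at 2 cm and 15.4 FPKM at 50 cm, a ratio of 1.43, and 3.13% of features had a higher ratio. INHBB had 0.752 and 1.08 FPKM, with a ratio of 1.44. INHA, whose alpha subunit turns a beta subunit into inhibin, was listed at 0 FPKM in both cultures, as were the beta subunit genes INHBC and INHBE. The subunit transcripts listed above 0 were thus those of activin A and, at a low level, activin B.

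The antagonist levels differed between the cultures by more than the subunit levels. FST had been selected on its ratio, so a larger difference was built into each sum or quotient that holds FST. The FST level was 0.800 times that of INHBA at 2 cm and 2.66 times at 50 cm. For FSTL3 over INHBA the quotients were 2.42 and 3.01. The sum of FST and FSTL3 over the sum of INHBA and INHBB was 3.01 at 2 cm and 5.29 at 50 cm. All of these genes were higher at 50 cm, and the quotients state only how much more the antagonist transcripts differed than the subunit transcripts. Protein was not measured.

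**Figure D2:**
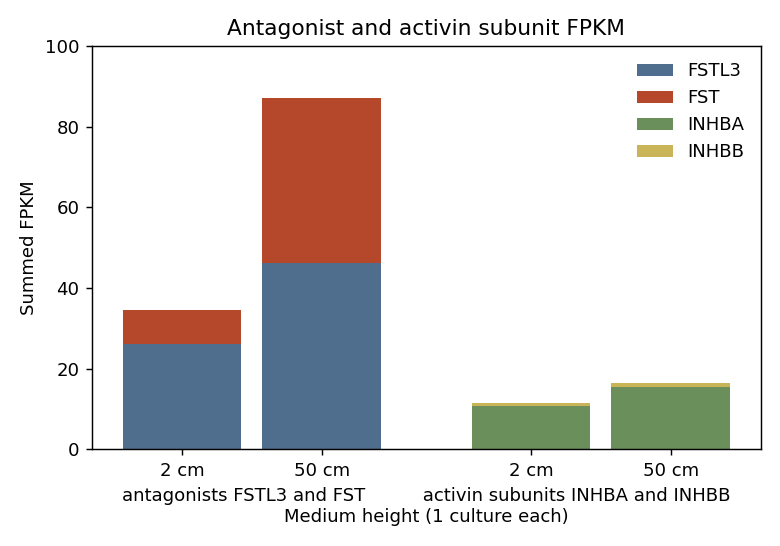
Summed FPKM (linear axis from 0) of the antagonists FSTL3 and FST, left pair of bars, and of the activin subunits INHBA and INHBB, right pair, in the 2 cm and the 50 cm culture (1 culture each). The antagonist sum was 34.6 and 87.0 FPKM, and the subunit sum 11.5 and 16.4 FPKM.

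The 4 receptor genes differed far less. ACVR1, a type I receptor that also serves bone morphogenetic proteins (BMPs), had 22.4 FPKM at 2 cm and 25.1 FPKM at 50 cm (ratio 1.12). ACVR1B, the main type I receptor for activin, had 4.92 and 4.08 FPKM (ratio 0.829). Of the type II receptors, ACVR2A had 8.54 and 8.01 FPKM (ratio 0.938), and ACVR2B had 2.60 and 2.27 FPKM (ratio 0.872). All 4 ratios lay between 0.829 and 1.12, and without replicates no direction is read from them. ACVR1 exceeded ACVR1B by 4.55 times at 2 cm and by 6.15 times at 50 cm, and ACVR2A exceeded ACVR2B by 3.29 and 3.54 times. Summed over the 4 genes, receptor levels were 38.4 and 39.4 FPKM. The order of levels among the receptors, ACVR1 first and ACVR2B last, was the same in both cultures.

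Because no replicate culture was available, each log2 ratio was set beside those of the 500 features of most similar mean log2 level, which gives a spread across genes and not an error. FST lay above all 500 of its nearest features, whose central 95% covered ratios of 0.730 to 1.45. FST had been selected on this ratio, so its place follows from the selection. FSTL3 lay above 498 of 500, outside a central range of 0.717 to 1.42. FSTL1 (above 489 of 500) and INHBA (above 486) lay at the upper edge of theirs. INHBB lay inside its range of 0.497 to 1.59, above 474 of 500. The features beside it were all above 1 FPKM in both cultures. Their mean levels were therefore higher than that of INHBB, and the range is not one for its own level. The receptor genes lay well inside, from ACVR1 (above 356 of 500) to ACVR1B (above 155).

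**Figure D3:**
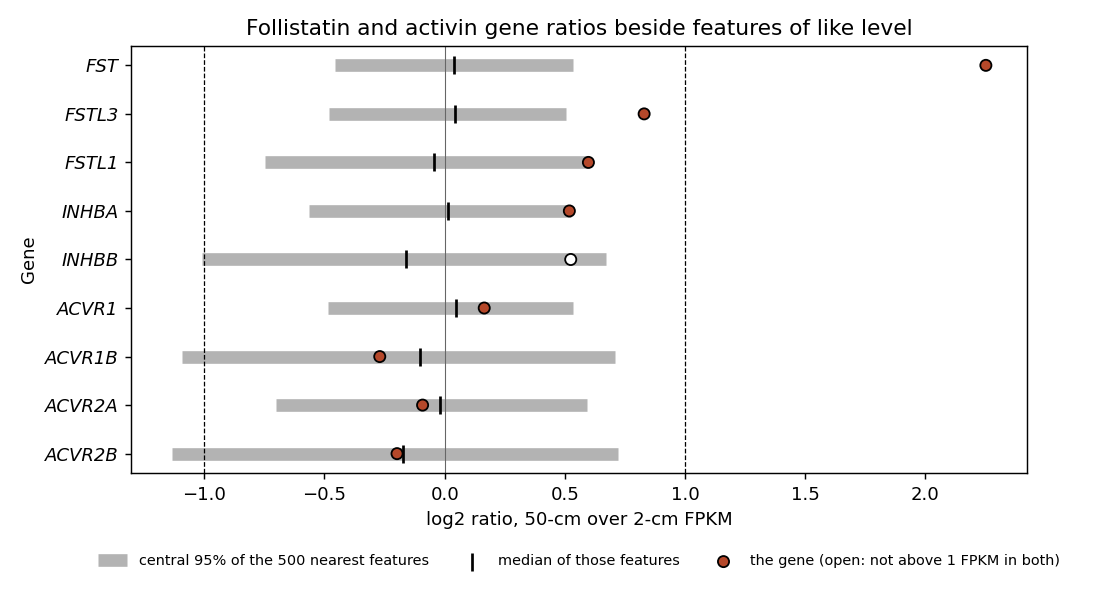
Log2 ratios of FPKM, 50 cm over 2 cm, for 9 of the genes (points, open for INHBB) with the median (tick) and the central 95% (grey bar) of the 500 features most similar in mean log2 level. Dashed lines mark 2-fold, and BAMBI has no ratio. The features beside INHBB all had a higher mean level than INHBB. FST, which had been selected on this ratio, lay at 2.25, above all of its nearest features, and the 4 receptor genes lay within their bars.

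**Figure D4:**
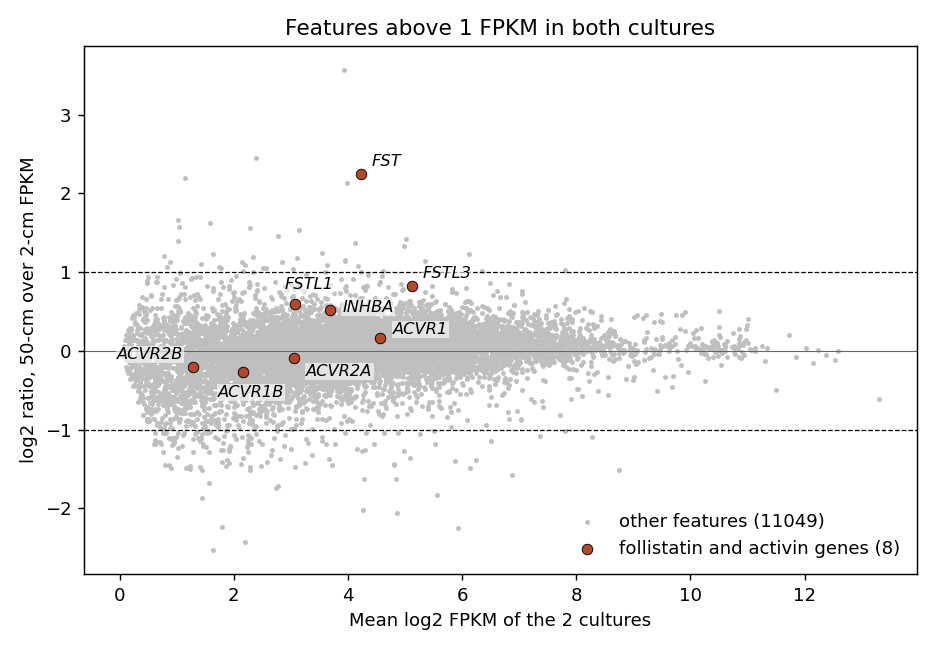
Each of the 11057 features above 1 FPKM in both cultures by its mean log2 FPKM (horizontal) and its log2 FPKM ratio, 50 cm over 2 cm (vertical), with 8 of the genes marked in red and dashed lines at 2-fold. FSTL3, FSTL1 and INHBA, at log2 ratios of 0.83, 0.60 and 0.52, lay above most features but below the 2-fold line.

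Read numbers are not given, but the lowest values kept traces of them. In both cultures 574 features lay above 0 but under 0.1 FPKM, and 213 of them had the same ratio to within 0.05%, namely 1.098, which is what 1 read in each culture gives. Where whole reads were counted, the FPKM ratio divided by this value is a ratio of whole numbers. The smallest pair within 0.001% was 29 reads at 2 cm against 38 at 50 cm for INHBB, and 34 against 27 for ACVR2B. At these read numbers the exact 95% binomial interval of the FPKM ratio was 0.864 to 2.42 for INHBB and 0.506 to 1.49 for ACVR2B. Both intervals include 1, so at these read numbers neither difference was detectable. Multiples of a pair give the same ratio, so the intervals are the widest that the matching pairs allow. For FST no pair smaller than 89 reads against 386 matched, and its interval at that pair was 3.77 to 6.06. The other matching pairs of up to 200 reads at 2 cm were not all multiples of this pair. The match for FST may therefore be a coincidence. The corresponding intervals were 1.54 to 2.05 for FSTL3, 1.23 to 1.87 for FSTL1, 1.19 to 1.72 for INHBA and 0.961 to 1.31 for ACVR1. The smallest pairs of FSTL3, INHBA and ACVR1 lay above 200 reads at 2 cm. Multiples were not checked there, and these matches too may be coincidences. The smallest pair of FSTL1 was 161 reads against 222, and every multiple of it lies above 200 reads at 2 cm. The check could thus find no multiple for FSTL1, and its match may also be a coincidence. For ACVR1B and ACVR2A no pair of up to 600 reads at 2 cm matched, and no interval is given. The pairs assume whole reads and 1 length per gene. The intervals cover counting error only and say nothing of how far 2 cultures at the same medium height would differ.

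Genes that act with activin and follistatin were then examined as 9 lists, which together held 100 genes besides the 10, with 95 of them in the files and 44 above the minimum. None of the 44 was past 2-fold, and their ratios ran from 0.607 to 1.79. Of all 11057 features 1.67% were past 2-fold, so nothing is read from this count. Of the 44, 28 (63.6%) were higher at 50 cm, compared with 52.6% of all 11057 features, and their median log2 ratio was 0.07, compared with 0.01 for all features. With 1 culture per group these shares carry no test.

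Among the other ligands of the activin and TGF-beta type, 3 of 13 genes were above the minimum, with a median log2 ratio of 0.02. GDF11, an activin-like factor that follistatin also binds, had 7.40 FPKM at 2 cm and 6.15 FPKM at 50 cm (ratio 0.831). TGFB1 had 3.79 and 4.55 FPKM (ratio 1.20), and TGFB2 had a ratio of 1.01. MSTN (myostatin) and NODAL, which signal through the same type II receptors, were listed at 0 in both cultures. Of 12 BMP genes, 4 were above the minimum, with a median log2 ratio of 0.35. BMP7, a kidney morphogen that follistatin can also bind, had 11.7 and 20.7 FPKM (ratio 1.76) and had the highest ratio of the list, and BMP8B had the lowest ratio, 0.977. BMP4 had the highest level of the list, 24.3 and 28.5 FPKM (ratio 1.18), and BMP2 had 4.41 and 6.12 FPKM (ratio 1.39).

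Of 12 other receptor and co-receptor genes, 6 were above the minimum, 3 higher and 3 lower at 50 cm, with a median log2 ratio of -0.05. TGFBR3, betaglycan, the co-receptor that lets inhibin compete with activin, had the lowest ratio, 0.663, with 3.45 and 2.29 FPKM. BMPR1B had the highest, 1.13. ACVR1C, a further type I receptor for activin B, was listed at 0 at 2 cm and had 0.0747 FPKM at 50 cm. Of 17 other secreted antagonists, only NOG and TWSG1 were above the minimum, with a median log2 ratio of 0.23. NOG, which encodes the BMP antagonist noggin, had 3.62 and 6.48 FPKM (ratio 1.79), and TWSG1, which modulates BMP binding to chordin, had 13.1 and 10.0 FPKM (ratio 0.769). The remaining proteins with a follistatin-type domain were represented by AGRN (agrin, ratio 1.07) and TMEFF2 (ratio 0.876), 2 of 10 genes, with a median log2 ratio of -0.05.

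The intracellular genes were expressed almost completely, with 16 of 17 SMAD genes and SMAD regulators above the minimum. Their median log2 ratio was 0.09, with 10 higher and 6 lower at 50 cm. SMAD3, which carries the activin signal, had 40.0 FPKM at 2 cm and 37.0 FPKM at 50 cm, and SMAD2 had 11.8 and 10.8 FPKM. The lowest ratio was that of SMAD1 (0.875) and the highest that of PMEPA1 (1.52), an inhibitor that sequesters SMAD2 and SMAD3. All 5 proteases that process the ligand precursors were above the minimum, from PCSK5 (ratio 0.896) to PCSK6 (1.19), with a median log2 ratio of 0.09. FURIN, which cleaves the activin precursor, had 19.1 and 20.4 FPKM.

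Of 13 genes known as targets of SMAD2 and SMAD3, 7 were above the minimum, 5 higher and 2 lower, with a median log2 ratio of 0.21. CDKN1A, a cell cycle inhibitor gene, had the highest ratio (1.74, from 51.0 FPKM at 2 cm to 88.6 FPKM at 50 cm). SMAD7, the feedback inhibitor, had 3.35 and 4.92 FPKM (ratio 1.47). In the opposite direction, CDKN2B had 2.48 and 1.51 FPKM (ratio 0.607), the lowest of the list, and TGFBI had 31.4 and 25.3 FPKM (ratio 0.806). CDKN1A has many other regulators, and PMEPA1, SKIL and SMAD7 also stand in another list. Of 8 genes known as targets of SMAD1 and SMAD5, the BMP branch, 4 were above the minimum. All 4 were higher, from ID3 (1.03) to SMAD7 (1.47), with a median log2 ratio of 0.28. SMAD6 (1.28) and SMAD7 also stand among the SMAD genes and regulators, whereas ID1 (1.15) and ID3 stand in this list only.

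**Figure D5:**
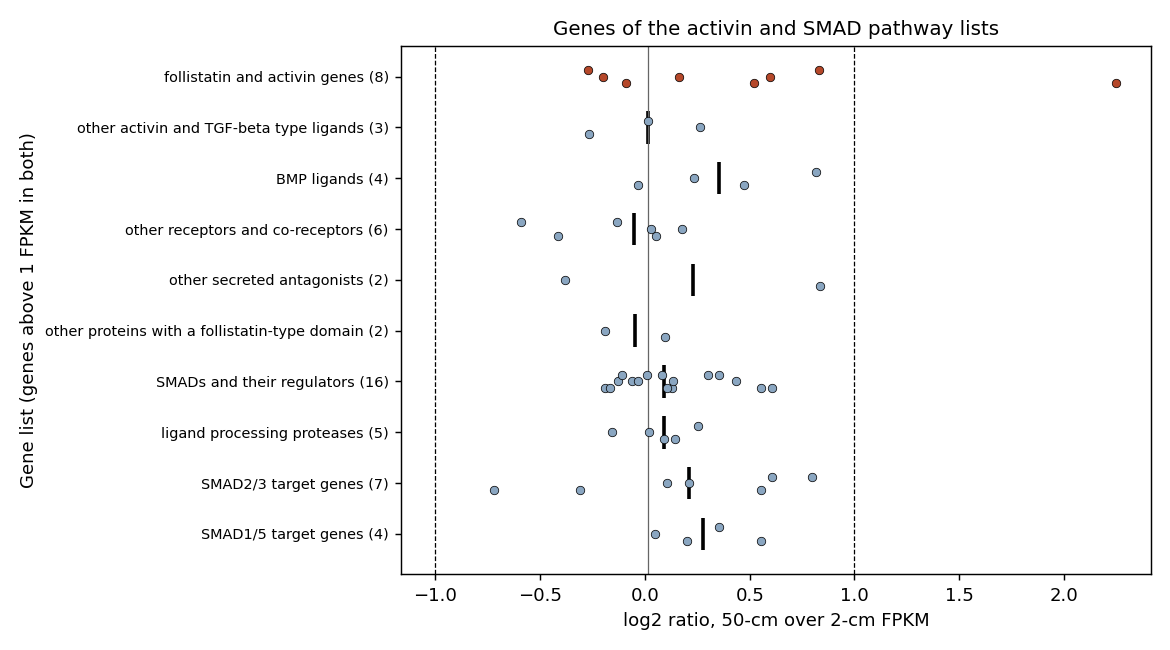
Log2 ratio of FPKM, 50 cm over 2 cm, of each gene above 1 FPKM in both cultures (points), for the follistatin and activin genes (red) and 9 further lists (blue), with the number of genes in parentheses and the median of each further list as a black bar. The grey line is the median of all features and dashed lines mark 2-fold. FST, which had been selected on its ratio, is the only point past 2-fold, and the list medians run from -0.05 to 0.35.

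The cell line label was checked against marker genes. Of 9 renal epithelial markers, 8 were above the minimum with ratios of 0.851 to 1.08, and the list summed to 3969 FPKM at 2 cm and 3788 FPKM at 50 cm. The exception was CDH16, the kidney-specific cadherin, at 1.96 and 0.676 FPKM, a ratio of 0.345. Being below the minimum at 50 cm, CDH16 was not counted as past 2-fold, although its ratio was below 0.5. None of 6 fibroblast, 4 endothelial or 3 leukocyte markers was above the minimum. Their sums were 0.374 and 0.401 FPKM for fibroblasts, 0.458 and 0.268 FPKM for endothelium and 0.0932 and 0 FPKM for leukocytes. COL3A1, DCN, PECAM1, TEK, PTPRC and CD3E were listed at 0 in both cultures. In bulk RNA, a larger share of cells expressing FST and more FST RNA per cell at 50 cm cannot be told apart.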

How the data were processed

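RNA of 2 MDCK cultures was analysed, 1 per medium height. The authors prepared stranded mRNA libraries and mapped single-end reads to the dog genome CanFam 3.1 with TopHat2 2.0.13, Bowtie2 2.2.3 and SAMtools 0.1.19. The deposited FPKM values were calculated by the authors with Cuffnorm 2.2.1. Which annotation and which scaling option were used is not given in the sources used here. FPKM depends on the annotated exon length, and the effect of the gene models on the values was not tested.

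Ratios, background counts and whole-read pairs were computed with Python 3.11.15, numpy 2.4.6, pandas 2.3.3, scipy 1.17.1 and matplotlib 3.10.9, and the steps were tested on simulated data. The simulated spread was smaller than that of these data, and the simulated read numbers were smaller than those of the FST pair. Matches at such larger read numbers were not tested. The nearest features were taken from those above 1 FPKM in both cultures. The genes and lists were chosen with earlier results of these data known. Named were all 10 genes, list members past 2-fold and the highest and lowest ratio of each list, and further list members were named later for their role. Gene coordinates and sequences were not analysed here, and an intended search for promoter motifs was not run. The genes BMP8A, CFC1, TMEFF1, MIXL1, ID2 and CD68 were not analysed here. A further list gene is not reported here and was left out of the counts. Alternatives were other FPKM minima, pseudocounts of 0.1 and 1, recentring, quantile normalization and rescaling to an equal sum.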

Additional observations from a re-analysis of the deposited data

How the results depend on the processing

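FST was past 2-fold, and no other of the 10 genes was, under each of 9 other settings and 1 more that was chosen after seeing the data (a mean FPKM above 1). An FPKM minimum leaves each ratio as it is, and FST had been selected on its ratio. Nothing is therefore read from its place under these settings. Under 5 other choices of pseudocount or scaling, all 45 log2 ratios of the genes kept their sign, and FST ran from 2.13 to 2.25. A pseudocount cannot change a sign, and recentring and rescaling shifted all genes alike by little, so most of these signs were fixed in advance. Quantile normalization brought ACVR2B from -0.20 to -0.02. The background did depend on the minimum. It was 356 of 11508 features past 2-fold (85 upward) with 1 FPKM in at least one culture. It was 1216 of 14306 (451 upward) above 0, 730 of 13280 (229 upward) above 0.1 and 62 of 8751 (19 upward) above 5 FPKM. With a pseudocount of 1 it was 92 of 11057 (24 upward). Genes of the 9 further lists past 2-fold numbered 1 with 1 FPKM in at least one culture, 4 above 0 and 1 above 0.1 FPKM. How many list genes passed each of these minima is not given here, so nothing is read from these counts. INHBB varied most, from 0.25 with a pseudocount of 1 to 0.75 with quantile normalization. No paired analysis was possible because each group has 1 culture and the values come from no test. Read numbers are unknown, and ACVR1B, ACVR2A and BAMBI have no counting interval.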

Other observations

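The 3 features with the log2 ratio nearest to that of FST, over 2 cultures only, were ABCC2 (ratio 4.58), LOC102153941 (4.39) and C32H4orf26 (5.49), beside 4.76 for FST. ABCC2, a transporter of organic anions, had 1.03 FPKM at 2 cm and 4.73 FPKM at 50 cm. LOC102153941 was at 7.57 and 33.2 FPKM, and it was the only one of the 3 whose levels were near those of FST (8.58 and 40.9 FPKM). C32H4orf26 was at 2.24 and 12.3 FPKM.

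Among the list genes below the minimum, SPARC, named after its values were seen, encodes a matrix protein with a follistatin-type domain. It had 0.470 FPKM at 2 cm and 1.29 FPKM at 50 cm, a ratio of 2.74. The smallest whole-read pair that gives this ratio is 2 against 5, for which the exact 95% binomial interval of the ratio runs from 0.449 to 28.8 and covers counting error only. FOXH1, a DNA-binding partner of SMAD2 also named after its values were seen, was at 1.92 and 0.993 FPKM (ratio 0.517). Its smallest pair is 17 against 8 reads, with an interval of 0.193 to 1.26 that includes 1.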
